A study of Mus musculus with 24 samples.

Results

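The transcriptome of brite adipocytes 72 h after knockdown (KD) of the long noncoding RNA Ctcflos was compared with that of cells given a nontargeting control (NC). The comparison holds 12 of the 24 libraries of the series, 6 KD and 6 NC, all those labelled 72 h in these groups; the other 12 are KD and NC libraries at 24 h and are used only where the late state was set against the early one. Every culture, KD or NC, consisted of primary preadipocytes of inguinal white fat of 129SvEv mice. They were induced and differentiated in medium with rosiglitazone, a PPARγ agonist that drives browning. By the paper's design they were reverse transfected after induction, on the first day of differentiation, and not as mature adipocytes. Both arms received an LNA gapmer, a modified DNA oligomer whose pairing exposes an RNA to cleavage by RNase H, at 50 nM. The cells then differentiated on until harvest. The study calls the replicates of a group biological replicates, but the labels do not tell whether they were separate isolations, animals or wells, and p-values measure the spread between these samples. The cells were measured in bulk, so fewer cells of a type and less RNA per cell cannot be told apart.

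Brite adipocytes are fat cells of white depots that take on features of brown fat. Their inner mitochondrial membrane carries Ucp1, which lets protons flow back without ATP being made and so turns fuel into heat. The programme rests on transcription factors such as Pparg, Prdm16, Ppargc1a, the EBF factors and Nfia, and on a dense respiratory chain that is fed by fatty acid oxidation and the citrate cycle. Ctcflos (1300015D01Rik in the table) is transcribed from the strand opposite to Ctcfl, in the neighbourhood of Pck1.

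The libraries were made by BRB-seq, which tags the 3′ ends of polyadenylated RNA. At 72 h they held 2906381 to 4768161 mapped reads each, as recovered from the steps of the deposited RPKM (reads scaled to transcript length and to the mapped reads of the library). NC replicates 2 and 3 differed by 0.37 of the variance that read counting alone gives, against 1.98 for the next closest pair, and were averaged and counted as 1 sample, which leaves 5 NC and 6 KD samples. In NC replicate 6, 92.4% of low values came out as whole reads, against 99.8% to 99.9% in the others. Over all 24 libraries, 16 and 8 formed a pair of groups by their expression that cut across the labels, with KD 5, KD 6, NC 4 and NC 5 in the smaller one at 72 h; values within each group are given beside some results. Levels below are in scaled RPKM: the deposited RPKM divided by a factor per library, which was 1.006 to 1.206 in KD and 0.894 to 0.935 in NC. Without these factors the median log2 fold change of all genes moved from 0.01 to 0.25, so that directions below are relative to the bulk of the genes and can turn on the deposited scale.

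Ctcflos itself (1300015D01Rik), at chr2:173110818-173133204 (plus strand, GRCm38), was low in all libraries. Its RefSeq entry NR_040321, of 3476 bases, stood at 1.58, 1.03, 0.846, 0.886, 1.75 and 0.971 deposited RPKM in NC replicates 1 to 6 and at 0, 0.439, 0.144, 0, 0.517 and 0.286 in KD replicates 1 to 6. That is 79 reads over the NC samples, with replicates 2 and 3 averaged, against 17 over the KD samples. No KD library reached the lowest NC library. The KD mean was 0.231 ± 0.220 (SD, n = 6) and the NC mean 1.23 ± 0.408 (SD, n = 5), or 18.8% of NC (2-sided exact permutation test over 462 splits, p = 0.0022, the smallest these splits give; adjusted over 6 entries p = 0.0043). The shorter entry ENSMUST00000144256 held 3 reads in KD against 31.5 in NC, or 8.37% (exact permutation p = 0.0065, adjusted p = 0.0078). The paper lists this entry as transcript 1, on which its transcriptome comparison centred. It stood at 0.834, 0.223, 0, 1.45, 2.20 and 2.32 deposited RPKM in NC replicates 1 to 6. KD replicates 1 to 6 were at 0, 0.494, 0, 0, 0 and 0.201, so for this entry the groups overlapped. The clone entries AK005014 and AK041254 share their reads with NR_040321 and ENSMUST00000144256 and gave near-identical percentages. AK079954 stood at 13.2%, and ENSMUST00000142165 was seen in NC replicate 6 alone. Pck1, the gluconeogenic and glyceroneogenic enzyme encoded next to Ctcflos, stood at 8.11, 7.36, 7.97, 14.4 and 7.25 scaled RPKM in the NC samples and 3.65 to 10.3 (median 6.03) in the KD samples. These ranges overlapped, and the difference did not pass the test (log2 fold change -0.49 ± 0.26 (SE), adjusted p = 0.19). Ctcfl was too low in all libraries to be tested.

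At 72 h, 2642 of 10489 tested genes differed between KD and NC at an adjusted p under 0.05 (limma, Benjamini-Hochberg; 25.2% of the genes tested). Of these, 1220 were higher in KD (11.6%) and 1422 lower (13.6%). For 1563 genes (14.9%) the KD and NC values did not overlap at all. The rises were fewer, but more of them were very steep: 96 genes rose and 51 fell by 2 or more on the log2 scale. By 1 or more, 419 rose and 463 fell. The split depends on the scaling, since on deposited RPKM 2717 genes were called higher and 666 lower, with 80.3% of calls upward against 46.2% on the scaled values. Of the 2642 calls, 1886 were also made in the same direction on deposited RPKM, 2094 in the larger group of libraries alone and 989 in the smaller one, which holds 2 KD and 2 NC samples.

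**Figure D1:**
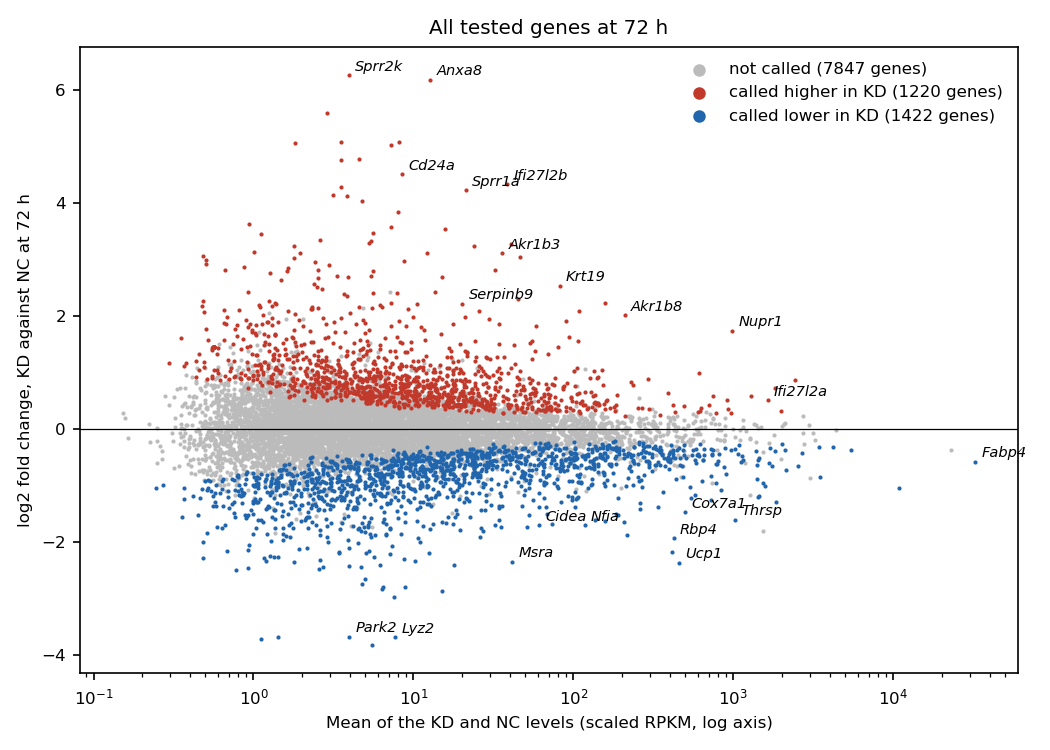
Log2 fold change of KD against NC at 72 h (y axis) against the mean of both group levels in scaled RPKM (x axis, log) for the 10489 tested genes, with 1220 called higher in red, 1422 called lower in blue and the rest in grey. The steepest rises lie at low to middle levels, while Ucp1, Rbp4, Thrsp and Cox7a1 fell at high levels.

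Among the 12 largest rises of genes that reached 5 scaled RPKM without overlap were genes of stratified epithelia, protease inhibitors and an interferon-inducible gene. Sprr2k, a small proline-rich protein of the cornified envelope, had no read in any NC sample and ranged over 5.61 to 11.6 (median 7.16) scaled RPKM in KD. Against a floor of 3 reads per NC library this is at least 6.17-fold higher. Bex2, a small X-linked adaptor protein, also had no NC read and ranged over 1.17 to 9.16 (median 6.65) in KD, at least 6.37-fold higher. Sprr1a, a cornified envelope precursor from the same chromosome 3 cluster as Sprr2k, was at 2.40, 0.780, 2.43, 2.67 and 2.36 scaled RPKM in the NC samples and 25.98 to 55.1 (median 42.4) in the KD samples. It rose in every KD sample (log2 fold change 4.23 ± 0.29 (SE), adjusted p = 8e-07). Anxa8, a calcium-dependent membrane-binding annexin, stood at 0, 0.409, 1.17, 0.502 and 0 scaled RPKM in the NC samples and 14.8 to 34.4 (median 26.7) in the KD samples. The KD samples were all far above the NC samples (log2 fold change 6.19 ± 0.58 (SE), adjusted p = 1e-05). Cd24a, a glycosylated surface antigen of progenitor cells, rose from 0.601 ± 0.202 (SD, n = 5) to 16.3 ± 6.25 scaled RPKM (SD, n = 6), with log2 fold change 4.51 ± 0.27. Ifi27l2b, an interferon alpha-inducible gene, stood at 1.73, 4.16, 2.76, 5.58 and 2.38 scaled RPKM in the NC samples and 24.1 to 103 (median 92.3) in the KD samples. The 24.1 RPKM of the lowest KD sample was still above all NC samples (log2 fold change 4.33 ± 0.42 (SE), adjusted p = 1.3e-05). The serine protease inhibitor genes Serpinb9g and Serpinb9e rose by 5.07 ± 0.41 and 5.03 ± 0.49 on the log2 scale. The remaining members of the 12 were 4931413I07Rik (5.08 ± 0.52), Tmem59l (4.79 ± 0.44), Gm12603 (4.76 ± 0.67) and Gipc2 (4.29 ± 0.65), each with non-overlapping groups and NC means of 0.332 to 0.528 scaled RPKM.

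The rises with the smallest p were again led by Sprr2k and Cd24a, followed by genes at higher levels. Serpinb9, an intracellular inhibitor of granzyme B, stood at 5.80, 7.05, 8.24, 7.25 and 7.12 scaled RPKM in the NC samples and 29.1 to 35.9 (median 33.9) in the KD samples. With little spread in either group it rose by 2.22 ± 0.11 (SE) on the log2 scale (adjusted p = 8.8e-08). Akr1b3, the aldose reductase that turns glucose into sorbitol, stood at 5.68, 9.95, 6.46, 8.03 and 6.64 scaled RPKM in the NC samples and 45.6 to 80.4 (median 67.9) in the KD samples, and rose (log2 fold change 3.11 ± 0.18 (SE), adjusted p = 3e-07). Krt19, a type I keratin of simple epithelia and mesothelium, stood at 22.9, 28.8, 24.9, 19.96 and 22.1 scaled RPKM in the NC samples and 97.6 to 164 (median 156) in the KD samples (log2 fold change 2.54 ± 0.16 (SE), adjusted p = 3.9e-07). Abcg2, an efflux pump for drugs and porphyrins, rose from 8.24 ± 2.76 (SD, n = 5) to 56.7 ± 6.08 scaled RPKM (SD, n = 6; adjusted p = 3.9e-07). For these 4 genes KD and NC did not overlap, and the calls held with any 1 replicate left out.

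The 12 largest falls of the same kind mixed very long genes, a macrophage gene and metabolic genes. Lyz2, the lysozyme of myeloid cells, stood at 5.02, 9.60, 21.3, 27.5 and 7.39 scaled RPKM in the NC samples and 0.226 to 3.98 (median 0.642) in the KD samples, and fell (log2 fold change -3.69 ± 0.59 (SE), adjusted p = 0.00057). Park2, which encodes the E3 ubiquitin ligase parkin that marks damaged mitochondria for removal, stood at 7.46, 6.58, 3.94, 8.35 and 10.5 scaled RPKM in the NC samples and 0.0822 to 1.07 (median 0.540) in the KD samples. All 6 KD samples were far below the lowest NC sample (log2 fold change -3.68 ± 0.46 (SE), adjusted p = 8.7e-05). Immp2l, an inner mitochondrial membrane peptidase, fell from 13.2 ± 2.16 (SD, n = 5) to 1.97 ± 1.33 (SD, n = 6), with adjusted p = 0.00029. Rbms3, an RNA-binding protein, and Sgcd, a sarcoglycan of the dystrophin complex, fell, with log2 fold changes of -2.66 and -2.45. Park2, Immp2l, Rbms3 and Sgcd each span more than 400 kb. Ube2e2, a ubiquitin-conjugating enzyme of 321 kb, and Gbe1, the glycogen branching enzyme of 256 kb, fell, with log2 fold changes of -2.42 and -2.41. Of the 12 falls, 11 had an annotated span and 6 of these exceeded 100 kb, and none of the 12 rises did. Among all called genes with a span, 365 of 1373 lower and 89 of 1203 higher ones exceed 100 kb. The short genes among the falls included Tmem45b (-2.84 ± 0.21), 1100001G20Rik (-2.88 ± 0.51), 8430408G22Rik (-2.43 ± 0.38) and Pdzk1ip1 (-2.80 ± 0.88, adjusted p = 0.031, up to 0.066 with 1 replicate left out). 9330177L23Rik, which has no annotated span here, fell, with a log2 fold change of -2.74.

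The falls with the smallest p were Msra, Tmem45b, Rbp4, Rbms3, Tspan12 and Sfxn1. Msra, the methionine sulfoxide reductase that repairs oxidised proteins, stood at 90.5, 77.7, 50.6, 50.3 and 79.7 scaled RPKM in the NC samples and 11.4 to 14.8 (median 13.4) in the KD samples. Its 18.97% of the NC mean left no overlap (log2 fold change -2.35 ± 0.16 (SE), adjusted p = 8e-07). Rbp4, the plasma retinol carrier that adipocytes secrete, stood at 803, 782, 514, 537 and 722 scaled RPKM in the NC samples and 138 to 233 (median 167) in the KD samples, and fell to 25.9% of the NC mean (log2 fold change -1.94 ± 0.15 (SE), adjusted p = 2.4e-06). Tspan12, a tetraspanin, and Sfxn1, a mitochondrial serine carrier, fell to 35.1% and 41.8% of the NC mean (adjusted p = 3.4e-06 and 3.5e-06).

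The thermogenic genes of brown and brite fat were lower in KD. Of 31 tested members of a list of 44, 16 fell and 2 rose, with a median log2 fold change of -0.75 against 0.01 over all genes. These shares were 51.6% and 6.45%, next to 13.6% lower and 11.6% higher among all genes. Ucp1 stood at 913, 823, 626, 608 and 842 scaled RPKM in the NC samples and 107 to 254 (median 132) in the KD samples, 20.1% of the NC mean (log2 fold change -2.37 ± 0.21 (SE), adjusted p = 6.8e-06). Cidea, a lipid droplet protein of brown fat, stood at 130.2, 106, 66.9, 62.1 and 106 scaled RPKM in the NC samples and 20.1 to 34.04 (median 28.6) in the KD samples (log2 fold change -1.71 ± 0.20 (SE), adjusted p = 6.4e-05). Both groups were clearly apart for these genes. Cox7a1, a cytochrome c oxidase subunit of muscle and brown fat, stood at 963, 897, 479.7, 556 and 801 scaled RPKM in the NC samples and 189.9 to 357 (median 255) in the KD samples (log2 fold change -1.47 ± 0.20 (SE), adjusted p = 0.00015). Cox8b, another tissue-restricted oxidase subunit, fell, with a log2 fold change of -1.88 (SE 0.23), Letmd1, a mitochondrial protein needed for thermogenesis, at -1.09 (SE 0.11) and Elovl3, a cold-induced fatty acid elongase, at -0.69 (SE 0.11). The 2 members that rose were Gnas, the stimulatory G protein alpha subunit (log2 fold change 0.41 ± 0.08 (SE), adjusted p = 0.0018), and Fabp3, a fatty acid-binding protein of muscle and heart named here after its values were seen (log2 fold change 1.34 ± 0.20 (SE), adjusted p = 0.00034). On deposited RPKM 15 members remained lower and 3 were higher. In the smaller group of libraries the Ucp1 difference was -1.49 and in the larger one -2.86.

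**Figure D2:**
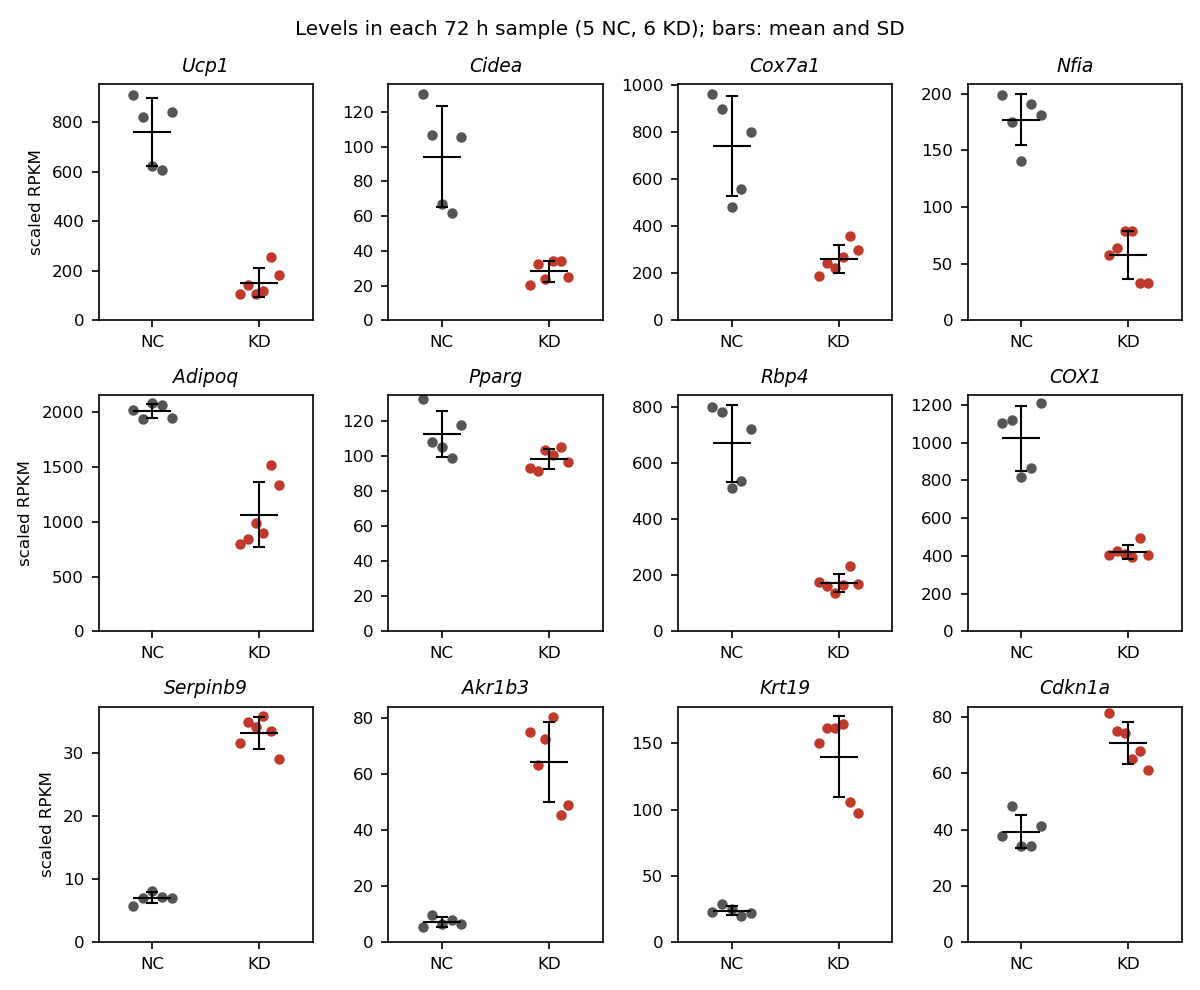
Levels in scaled RPKM (y axis) of 12 genes in the 5 NC (grey) and 6 KD (red) samples at 72 h, 1 point per sample, with the mean and SD in black. KD and NC points do not overlap for Ucp1, Cidea, Cox7a1, Nfia, Adipoq, Rbp4, COX1, Serpinb9, Akr1b3, Krt19 and Cdkn1a, and overlap for Pparg.

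Transcription factors and coregulators of the brown programme were affected in part. Of 35 tested, 12 fell and 3 rose (median -0.43; on deposited RPKM 9 and 5, median -0.18). These shares were 34.3% and 8.57%, next to 13.6% lower and 11.6% higher among all genes. Nfia, a nuclear factor I protein that opens brown enhancers, stood at 199, 175, 140.3, 191 and 181 scaled RPKM in the NC samples and 32.6 to 79.2 (median 60.7) in the KD samples, with no overlap (log2 fold change -1.70 ± 0.23 (SE), adjusted p = 0.00018). Ebf1 and Ebf2, which recruit Pparg to brown genes, fell, with log2 fold changes of -1.13 ± 0.11 and -1.09 ± 0.19. Thrb, a thyroid hormone receptor, was low but fell from 1.96 ± 0.411 (SD, n = 5) to 0.470 ± 0.127 (SD, n = 6), with adjusted p = 0.00012. Ppara, the receptor that switches on fatty acid oxidation, fell, with a log2 fold change of -1.43 and Ppargc1a, the coactivator of mitochondrial biogenesis, at -1.27. Prdm16, the zinc finger coregulator of brown identity, stood at 0.899, 0.933, 0.878, 1.25 and 0.441 scaled RPKM in the NC samples and 0.125 to 0.605 (median 0.251) in the KD samples. Its ranges overlapped, though the difference passed (log2 fold change -1.37 ± 0.33 (SE), adjusted p = 0.0088). Pparg, the master regulator of fat cells, stood at 133, 108, 105, 99.1 and 118 scaled RPKM in the NC samples and 91.4 to 105 (median 98.8) in the KD samples, and this difference did not pass (log2 fold change -0.19 ± 0.09 (SE), adjusted p = 0.15; on deposited RPKM 0.07). Cebpb, an early adipogenic factor, fell by less (log2 fold change -0.43 ± 0.14 (SE), adjusted p = 0.036), a call that was lost on deposited RPKM (adjusted p = 0.31) and with 1 replicate left out (up to 0.077). Plac8, the member with the highest level, gave 0.04 ± 0.23. The 3 that rose were Nr4a1, an immediate early orphan nuclear receptor (2.20 ± 0.46), Zfp516, a zinc finger activator of Ucp1 (0.65 ± 0.21), and Kdm1a, a lysine demethylase of histones (0.60 ± 0.17), named after their values were seen. Only 1 regulator was called higher with a replicate block, 1 when the larger group of libraries was fitted alone and 1 when the smaller one was. Of the 12 regulators that fell, 8 span more than 100 kb, among them Nfia (346 kb), Ebf1 (391 kb) and Thrb (378 kb). Of all tested genes, 21.8% of those of 100 to 200 kb fell, 42.2% of those of 200 to 400 kb and 56.2% of those above 400 kb. The 22 regulators of up to 100 kb had a median of -0.03, with 4 lower. Among all tested genes, 13.03% of those under 10 kb fell, 9.99% of those of 10 to 50 kb and 12.3% of those of 50 to 100 kb. Among thermogenic genes of up to 100 kb, 14 of 27 fell (median -0.75). The part of gene span in the falls of either list was not tested.

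Genes of fat cells of any colour were also lower: 25 of 44 fell and none rose (median -0.58; on deposited RPKM 19 lower and 3 higher). The share that fell was 56.8%, against 13.6% of all genes. Adipoq, the adipokine adiponectin, stood at 2017, 1941, 2086, 2068 and 1949 scaled RPKM in the NC samples and 799 to 1519 (median 942) in the KD samples (log2 fold change -0.96 ± 0.15 (SE), adjusted p = 0.00053). Fabp4, the fatty acid carrier of adipocytes and the member with the highest RPKM, kept 66.9% of its NC mean (log2 fold change -0.58 ± 0.12 (SE), adjusted p = 0.003; on deposited RPKM adjusted p = 0.11). Slc2a4, the insulin-responsive glucose transporter, stood at 26.1, 21.1, 15.2, 15.7 and 21.1 scaled RPKM in the NC samples and 4.49 to 7.08 (median 5.32) in the KD samples (log2 fold change -1.78 ± 0.17 (SE), adjusted p = 1.4e-05). Cidec, the droplet fusion protein, did not pass (log2 fold change 0.10 ± 0.12 (SE), adjusted p = 0.56). The 6 adipocyte markers summed to 27116 to 36607 scaled RPKM in KD and 38600.0 to 49442 in NC, while the 5 brown or brite markers summed to 475 to 907 and 1584 to 2558. Of the 6 adipocyte markers 3 fell and none rose, and all 5 brown or brite markers fell. Such sums weigh the genes with the highest levels most, such as Fabp4.

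Fatty acid synthesis had the lowest median of the nuclear-encoded lists, -0.91, with 11 of 16 members lower and 1 higher. These shares were 68.75% and 6.25%, next to 13.6% lower and 11.6% higher among all genes. Acaca, the acetyl-CoA carboxylase that commits carbon to fatty acids, stood at 23.1, 19.5, 16.6, 19.01 and 24.5 scaled RPKM in the NC samples and 2.86 to 6.70 (median 4.28) in the KD samples (log2 fold change -2.19 ± 0.21 (SE), adjusted p = 1.4e-05). Thrsp, a lipogenic nuclear and cytosolic protein, fell to 33.2% of the NC mean (adjusted p = 2e-05). Scd1, the stearoyl-CoA desaturase, Me1, the malic enzyme that supplies NADPH, and Elovl5, an elongase, fell, with log2 fold changes of -1.02, -0.97 and -0.86. In the smaller group of libraries the median of the list was -0.23, against -1.20 in the larger one. Of 27 triglyceride and lipid droplet genes, 13 fell and none rose (median -0.48; on deposited RPKM 2 higher and 9 lower, median -0.22), among them Lpin1, a phosphatidate phosphatase (log2 fold change -1.14 ± 0.19 (SE), adjusted p = 0.00066), G0s2, an inhibitor of the lipase Pnpla2 (log2 fold change -0.89 ± 0.13 (SE), adjusted p = 0.00023), and Mgll, the monoglyceride lipase (log2 fold change -0.83 ± 0.13 (SE), adjusted p = 0.00043). Among all triglyceride and lipid droplet genes tested, 48.1% fell, against 13.6% of all genes. In glucose use and insulin signalling, 9 of 29 fell and 2 rose (median -0.34; on deposited RPKM 2 higher and 4 lower, median -0.10), with Grb10 and Ldha lower, at -0.66 and -0.65. In this list 31.0% fell and 6.90% rose, next to 13.6% and 11.6% of all genes. Cholesterol synthesis had changes both ways: 4 rose and 5 fell of 23 (median 0.02; on deposited RPKM 7 higher and 3 lower, median 0.28), next to 11.6% of all genes higher and 13.6% lower. The count of rises was 1 without the filter on low values and 2 with a replicate block. Nsdhl and Acat2 fell, with log2 fold changes of -1.03 and -0.75, Hsd17b7 rose by 0.52, and Insig1, the sterol sensor partner, fell, with a log2 fold change of -1.30 (adjusted p = 0.0053).

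The respiratory chain was lower from both genomes. Of 79 nuclear-encoded subunits tested, 52 fell, none rose and 76 had a value below 0 (median -0.43). The share that fell was 65.8%, against 13.6% of all genes. Complex I had 27 of 35 subunits lower (median -0.47), complexes II and III with cytochrome c 9 of 14 (-0.47), complex IV 10 of 14 (-0.45) and complex V, the ATP synthase, 6 of 16 (-0.34). Ndufs4, an accessory subunit of the NADH-binding arm, stood at 145, 133, 127, 140.4 and 138 scaled RPKM in the NC samples and 49.6 to 70.1 (median 60.5) in the KD samples, the steepest fall in complex I (log2 fold change -1.21 ± 0.10 (SE), adjusted p = 3.5e-06). Ndufv3, Ndufs8 and Ndufb9, other complex I subunits, fell, with log2 fold changes of -0.81, -0.61 and -0.65. Cycs, cytochrome c, stood at 96.1, 90.7, 71.2, 77.2 and 102 scaled RPKM in the NC samples and 39.5 to 50.8 (median 42.7) in the KD samples (log2 fold change -0.99 ± 0.11 (SE), adjusted p = 4.2e-05). Uqcrq and Sdhd fell, with log2 fold changes of -0.73 and -0.59, Cox4i1 and Cox7b at -0.67 and -0.62, and Atp5o at -0.58 (adjusted p = 8.9e-05). Ndufa4 (-0.27 ± 0.11) and Atp5g3 (-0.16 ± 0.09) did not pass. These differences are of the size of the shift between scales, and 18 subunits were called lower on deposited RPKM and 1 was called higher, with 63 of 79 below 0. All 6 tested mitochondrially encoded mRNAs fell (median -1.12), and 5 of 6 on deposited RPKM. COX1, the catalytic core of complex IV, stood at 1106, 1119, 817, 864 and 1209 scaled RPKM in the NC samples and 393 to 497 (median 407) in the KD samples (log2 fold change -1.27 ± 0.11 (SE), adjusted p = 6.8e-06). ND4L, ND6 and ND5, core subunits of complex I, fell, with log2 fold changes of -1.06, -1.21 and -1.19. ND5 and ND6 overlap on opposite strands and their reads may not be told apart.

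Most pathways that feed the chain were lower too. Of 23 citrate cycle and pyruvate dehydrogenase genes 17 fell and none rose (median -0.54), with Idh3a, the regulated isocitrate dehydrogenase subunit, at 55.4% and Sucla2, a succinyl-CoA ligase subunit, at 52.1% of NC. Mdh2 did not pass (-0.21 ± 0.11). Of 24 genes of mitochondrial fatty acid oxidation 19 fell and none rose (median -0.52). Hadh, the short-chain hydroxyacyl-CoA dehydrogenase, stood at 887, 795, 635, 793 and 879 scaled RPKM in the NC samples and 325 to 398 (median 345) in the KD samples (log2 fold change -1.17 ± 0.10 (SE), adjusted p = 5.5e-06). Acadm, the medium-chain acyl-CoA dehydrogenase, and Acaa2, the thiolase, fell, with log2 fold changes of -1.22 ± 0.17 and -1.08 ± 0.17. Etfa, which passes electrons from these enzymes to the chain, and Hadha fell, with log2 fold changes of -0.91 and -0.96. Branched-chain amino acid breakdown had 13 of 23 lower (median -0.49), with Pcca, a propionyl-CoA carboxylase subunit, at 50.1% of NC. The shares that fell in these 3 lists were 73.9%, 79.2% and 56.5%, against 13.6% of all genes. On deposited RPKM these 3 lists had 9, 9 and 3 members lower and 0, 1 and 0 higher. Of 31 peroxisomal genes 10 fell and 1 rose (median -0.29; on deposited RPKM 2 and 5, median -0.03). That is 32.3% and 3.23%, next to 13.6% lower and 11.6% higher among all genes. Abcd3, a transporter of the peroxisomal membrane, and Phyh, the phytanoyl-CoA hydroxylase, fell, with log2 fold changes of -0.96 and -0.73, the latter lost on deposited RPKM (adjusted p = 0.054), whereas Cat, catalase, gave 0.01 ± 0.10. For the mitochondrial ribosome, 22 of 73 fell and 1 rose (median -0.21), but the direction turned with the scale, since the median on deposited RPKM was 0.05 with 10 higher and 3 lower. On scaled values 30.1% fell and 1.37% rose, next to 13.6% and 11.6% of all genes. Mrps9 and Mrps6 fell, with log2 fold changes of -0.94 and -0.65 and were called lower on both scales.

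Of 40 tested antioxidant and detoxifying targets of NRF2, 10 rose and 6 fell (median 0.15; on deposited RPKM 17 higher and 3 lower, median 0.40). The share that fell, 15.000%, was near the 13.6% of all genes, and 25.000% rose against 11.6%. The rises were large in aldo-keto reductases, enzymes that reduce aldehydes and ketones: besides Akr1b3, Akr1b8 stood at 86.6, 100.3, 71.3, 69.1 and 81.04 scaled RPKM in the NC samples and 217 to 411 (median 381) in the KD samples (log2 fold change 2.01 ± 0.18 (SE), adjusted p = 6.2e-06), and Akr1c18, a progesterone-metabolising member, rose from 0.883 ± 0.415 (SD, n = 5) to 9.98 ± 3.77 (SD, n = 6; adjusted p = 5.6e-05). Akr1b3 and Akr1b8 have near-identical relatives, between which counting can split reads. G6pdx, the first enzyme of the pentose phosphate path, and Mgst1, a microsomal glutathione transferase, fell, with log2 fold changes of -0.94 and -0.33 (Mgst1 on deposited RPKM adjusted p = 0.59), and Fth1, the ferritin heavy chain, gave -0.07 ± 0.08.

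Of 35 tested genes that p53 induces, 15 rose and none fell (median 0.57), against 11.6% of all genes higher. Values were above 0 for 27 and below 0 for 8. The larger group of libraries had 16 higher and 2 lower, and the smaller one 8 higher and 1 lower. Mdm2, the ubiquitin ligase that p53 induces against itself, stood at 14.5, 11.8, 11.6, 9.998 and 9.59 scaled RPKM in the NC samples and 20.8 to 27.9 (median 23.6) in the KD samples (log2 fold change 1.05 ± 0.13 (SE), adjusted p = 9.3e-05). Cdkn1a, the cell cycle inhibitor p21, stood at 37.9, 48.2, 34.3, 34.1 and 41.4 scaled RPKM in the NC samples and 61.1 to 81.3 (median 71.2) in the KD samples (log2 fold change 0.86 ± 0.11 (SE), adjusted p = 0.00014). The kinase Plk3 and the microtubule protein Psrc1 rose by 1.73 ± 0.30 and 1.52 ± 0.27 from low levels. Phlda3, an Akt repressor with the second highest RPKM of the list, did not pass (0.20 ± 0.15). The ATF4 and unfolded protein response list was mixed, with 7 higher and 6 lower of 37 (median -0.03, which turned to 0.23 on deposited RPKM). That is 18.9% and 16.2%, next to 11.6% and 13.6% of all genes. Nupr1, a stress-induced chromatin protein, stood at 475, 565, 378, 318 and 477 scaled RPKM in the NC samples and 924 to 2032 (median 1698) in the KD samples (log2 fold change 1.74 ± 0.22 (SE), adjusted p = 9.8e-05). Ddit3, the factor CHOP, and Ppp1r15a, which ends eIF2α phosphorylation, rose by 0.65 and 0.99, whereas Mthfd1l, a mitochondrial one-carbon enzyme, fell, with a log2 fold change of -1.41. Of 48 cell cycle genes 5 rose and 1 fell (median 0.07; on deposited RPKM 12 higher and none lower, median 0.32). The share that rose, 10.4%, was near the 11.6% of all genes, and 2.08% fell against 13.6%. The direction differed between the groups of libraries, with 11 higher and 1 lower (median 0.27) in the larger and 2 higher and 11 lower (median -0.29) in the smaller one. The rises included the inhibitors Cdkn1c (log2 fold change 2.12 ± 0.33 (SE), adjusted p = 0.00048) and Cdkn2b (log2 fold change 0.73 ± 0.13 (SE), adjusted p = 0.00099) beside Cdkn1a, and Ccnd2, cyclin D2, fell, with a log2 fold change of -0.41 (on deposited RPKM adjusted p = 0.31). Cdkn1c rose by 2.92 in the larger and 0.78 in the smaller group of libraries.

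Clade B serpins, which inhibit serine and cysteine proteases inside cells, rose from a single chromosomal cluster. Of 23 on the list 9 were high enough to be tested; 5 of these rose and none fell, and all 5 lie on chromosome 13. A gene could enter the fit through the KD samples alone, so that the count and the median of 2.22 cover the detected members, not the list. Serpinb6b (chr13:32965209-32979067), Serpinb9 (chr13:33003250-33017957), Serpinb9b (chr13:33027416-33041884), Serpinb9e (chr13:33249612-33260850) and Serpinb9g (chr13:33484790-33496004) lie there in this order (GRCm38). Serpinb6b stood at 3.06, 3.18, 6.35, 4.67 and 5.70 scaled RPKM in the NC samples and 31.1 to 50.7 (median 46.99) in the KD samples (log2 fold change 3.23 ± 0.21 (SE), adjusted p = 4.9e-07). Serpinb9b stood at 4.52, 3.77, 15.6, 14.1 and 5.69 scaled RPKM in the NC samples and 53.8 to 86.3 (median 79.4) in the KD samples (log2 fold change 3.27 ± 0.33 (SE), adjusted p = 1.9e-05). Serpinb6a, on the same chromosome at chr13:33917918-34002794, had the highest RPKM of the list and did not pass (log2 fold change 0.21 ± 0.11 (SE), adjusted p = 0.18; on deposited RPKM adjusted p = 0.0067). The Serpinb9 genes are close paralogs, so reads can be split between them. Of 17 annexins and S100 proteins 5 rose and 4 fell (median 0.04; on deposited RPKM 7 higher and 1 lower, median 0.30). That is 29.4% and 23.5%, next to 11.6% higher and 13.6% lower among all genes. S100a3 rose by 2.97 ± 0.37, Anxa5 by 0.36 ± 0.08, and S100b fell, with a log2 fold change of -1.74. Anxa2 gave -0.32 ± 0.10 (adjusted p = 0.031, and 0.71 on deposited RPKM), a value that turned to 0.02 in the smaller group of libraries.

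Of 48 keratin, junction and envelope genes of epithelia only 9 were high enough to be tested, and 8 of these rose (median 2.09). A gene could enter the fit through the KD samples alone, so this count covers the detected members, not the list. Ly6d, a surface antigen of keratinocytes and lymphoid progenitors, stood at 19.7, 19.1, 92.1, 82.8 and 32.3 scaled RPKM in the NC samples and 154 to 182 (median 166) in the KD samples (log2 fold change 2.09 ± 0.36 (SE), adjusted p = 0.00099). Ajuba, a junction and Hippo pathway adaptor that is also on the actin list, rose by 1.47 ± 0.25. The defining markers of epithelial cells were at or near 0: Epcam had no read in any sample, Cdh1, Krt8, Krt18 and Krt7 averaged under 1 scaled RPKM, Cldn4 was too low to be tested, and the 6 markers summed to 1.86 to 4.88 in KD and 0 to 0.541 in NC. Of the 6 mesothelial markers, Krt19 rose, Wt1 gave -1.51 ± 0.58 (adjusted p = 0.073, with overlap), Upk3b was at 0 in all samples and Msln, Lrrn4 and Upk1b averaged under 1. The sum of the 6 was 98.8 to 167 in KD and 21.3 to 41.6 in NC. Nearly all of it in KD was Krt19, so it restates the rise of Krt19 and not of the markers as a set. The part of mesothelial cells in the result was not tested.

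The 250 bases upstream of the RefSeq start of Sprr2k and Sprr1a (GRCm38.p6) are shown because these genes rose together from 1 locus and both hold the AP-1 letters TGANTCA, in capitals, 2 times each. The Sprr2k stretch is chr3:92432332-92432581 on the plus strand, with matches that begin 196 and 182 bases before the start. The Sprr1a stretch is chr3:92485882-92486131 on the minus strand, with matches 146 and 116 bases before the start. The motif is the same on both strands apart from the free base, and was searched on both.
Sprr2k: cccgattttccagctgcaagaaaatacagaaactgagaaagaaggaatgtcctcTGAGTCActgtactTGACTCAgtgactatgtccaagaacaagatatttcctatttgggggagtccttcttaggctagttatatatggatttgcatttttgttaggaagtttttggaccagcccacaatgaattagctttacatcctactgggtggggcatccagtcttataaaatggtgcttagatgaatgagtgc
Sprr1a: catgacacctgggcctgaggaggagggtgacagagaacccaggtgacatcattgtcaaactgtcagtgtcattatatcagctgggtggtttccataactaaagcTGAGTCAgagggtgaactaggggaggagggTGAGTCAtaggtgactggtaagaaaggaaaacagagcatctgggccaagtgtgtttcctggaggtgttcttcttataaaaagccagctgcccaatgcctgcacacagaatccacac
TGANTCA was found in 1856 of 27025 such stretches (6.87%). It was in 326 of 7646 tested genes with a RefSeq stretch (4.26%), in 7.20% of the 889 that rose and in 3.62% of the 995 that fell. Of the 59 that rose by 2 or more on the log2 scale, 10 held it (16.9%). These are shares of letters in a window, given as a description.

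Genes that interferons induce were higher in KD. Of 57 tested, 26 rose (45.6%, against 11.6% of all genes) and 2 fell (median 0.72; on deposited RPKM 37 higher and 1 lower, median 0.98). Irf7, the transcription factor that amplifies the interferon response, stood at 105, 133, 91.5, 61.3 and 109 scaled RPKM in the NC samples and 157 to 225 (median 205) in the KD samples, and rose (log2 fold change 1.04 ± 0.16 (SE), adjusted p = 0.00049). Isg15, a ubiquitin-like modifier, stood at 30.6, 44.5, 21.05, 12.7 and 64.2 scaled RPKM in the NC samples and 58.5 to 119 (median 76.98) in the KD samples (log2 fold change 1.39 ± 0.34 (SE), adjusted p = 0.0087). The guanylate-binding protein Gbp2 stood at 12.3, 25.1, 14.6, 12.2 and 28.9 scaled RPKM in the NC samples and 28.4 to 46.03 (median 34.99) in the KD samples (log2 fold change 1.02 ± 0.23 (SE), adjusted p = 0.0051). The KD and NC ranges of Isg15 and Gbp2, which are named for their promoters, overlapped. Psmb10, a catalytic subunit of the immunoproteasome, rose by 0.82 ± 0.16, and Ifi27l2a, a member with a high RPKM, by 0.51 ± 0.16 with adjusted p = 0.029, which was up to 0.079 with 1 replicate left out. B2m, the light chain of MHC class I, did not pass (0.23 ± 0.12; on deposited RPKM adjusted p = 0.0066). The larger group of libraries had 14 higher and 5 lower (median 0.45) and the smaller one 35 higher and none lower (median 1.04). Only 6 of the 57 members had groups without overlap, against 14.9% of all genes. At 24 h the list had a median of 0.31, with 9 higher and 3 lower.

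Of the 20 interferon-stimulated genes that rose and have a RefSeq stretch, 8 held the core letters of the interferon-stimulated response element, 2 copies of TTTC with 2 free bases between them, on either strand (40%), against 3.04% of all 27025 stretches and 2.58% of those of tested genes. Among all genes that rose the share was 3.82%. The list was made of genes that interferons induce, and the share among its members that did not rise was not counted. The 40% therefore describes the list and is not a result about the knockdown. Of the listed genes that rose and held these letters, the 3 with the smallest p are shown, with the letters in capitals. Overlapping matches run together, and a match on the other strand appears as its reverse complement.
Gbp2: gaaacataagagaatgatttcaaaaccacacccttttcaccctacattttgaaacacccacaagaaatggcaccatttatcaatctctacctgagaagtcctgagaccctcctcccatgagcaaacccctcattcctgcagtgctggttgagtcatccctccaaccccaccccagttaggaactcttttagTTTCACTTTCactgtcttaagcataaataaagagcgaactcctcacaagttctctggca
Isg15: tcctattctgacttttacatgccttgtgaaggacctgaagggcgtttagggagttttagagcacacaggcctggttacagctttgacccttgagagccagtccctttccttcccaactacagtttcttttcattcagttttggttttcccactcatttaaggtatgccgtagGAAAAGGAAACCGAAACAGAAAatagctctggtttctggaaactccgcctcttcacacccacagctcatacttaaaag
Irgm1: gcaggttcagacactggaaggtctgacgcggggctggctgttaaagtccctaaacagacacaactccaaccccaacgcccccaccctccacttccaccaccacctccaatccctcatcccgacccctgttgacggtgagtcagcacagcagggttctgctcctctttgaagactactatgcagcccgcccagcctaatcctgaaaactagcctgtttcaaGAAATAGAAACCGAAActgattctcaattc
They lie at chr3:142620413-142620662 (plus strand), chr4:156200819-156201068 (minus strand) and chr11:48871421-48871670 (minus strand) of GRCm38.p6. Gbp2 has 1 match that begins 59 bases before the start, Isg15 has 3 and Irgm1, an interferon-inducible GTPase that rose by 1.38 ± 0.34, has 2.

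Secreted immune signals mostly did not pass: 2 of 27 chemokines and cytokines rose and 3 fell (median 0.09). That is 7.41% and 11.1%, next to 11.6% and 13.6% of all genes. Spp1, osteopontin, stood at 331, 399.96, 582, 476 and 285 scaled RPKM in the NC samples and 677 to 891 (median 812) in the KD samples (log2 fold change 0.99 ± 0.16 (SE), adjusted p = 0.00046). Cxcl16 and Cxcl14 fell, with log2 fold changes of -0.92 and -0.72. Cxcl12, which holds progenitor cells in their niche, fell, with a log2 fold change of -1.74, but at -2.68 in the larger and -0.40 in the smaller group of libraries, and with overlap. Of 13 complement genes 3 fell and 1 rose (median -0.23, which turned to 0.03 on deposited RPKM). That is 23.1% and 7.69%, next to 13.6% lower and 11.6% higher among all genes. Cfd, the protease adipsin that adipocytes secrete, stood at 114, 89.8, 40.7, 46.3 and 105 scaled RPKM in the NC samples and 15.2 to 32.4 (median 27.2) in the KD samples (log2 fold change -1.53 ± 0.27 (SE), adjusted p = 0.0012). C1qtnf1, an adiponectin paralog, rose by 0.84 ± 0.20. The fall of Lyz2 stands beside other macrophage genes. Of 15 markers 4 were tested; Lyz2 and Fcer1g fell (Fcer1g -3.83 ± 0.88, with overlap), Csf1r rose (1.23 ± 0.24), Cd14 did not pass (-0.42 ± 0.45) and 8, among them Emr1, Itgam and Ptprc, averaged under 1 scaled RPKM. The summed level was 11.997 to 17.9 in KD and 20.4 to 86.2 in NC, and the part of such cells in other results was not tested. All 6 lymphocyte markers were at 0 in every sample. Endothelial markers summed to 1.63 to 5.66 in KD and 2.16 to 4.17 in NC, pericyte and smooth muscle markers to 192 to 260.4 and 248 to 775, and Schwann and neural markers to 2.84 to 6.13 and 4.90 to 11.2.

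In the extracellular matrix, 12 of 31 collagen chains and their enzymes fell and 1 rose (median -0.35; on deposited RPKM -0.10 with 5 lower). That is 38.7% and 3.23%, next to 13.6% lower and 11.6% higher among all genes. Col5a3 and Col5a1, chains of fibrillar collagen V, fell, with log2 fold changes of -1.15 ± 0.19 and -0.89 ± 0.19, Col4a2 of the basement membrane at -0.97 ± 0.18, and Serpinh1, the collagen chaperone, at -0.58 ± 0.11. Col1a2, the chain with the highest RPKM, did not pass (-0.29 ± 0.12). Other matrix genes went both ways, with 13 lower and 7 higher of 51 (median -0.06; on deposited RPKM 12 higher and 5 lower, median 0.18). The share that rose, 13.7%, was near the 11.6% of all genes, and 25.5% fell against 13.6%. The procollagen protease Adamts2 and the basement membrane proteins Nid1 and Hspg2 fell, with log2 fold changes of -1.19, -0.80 and -1.17, while Timp2, a metalloproteinase inhibitor, rose from 22.2 ± 2.89 (SD, n = 5) to 34.6 ± 3.18 (SD, n = 6). Of 34 actin and contractile genes 8 rose and 3 fell (median 0.12; on deposited RPKM 15 higher and 1 lower, median 0.38). That is 23.5% and 8.82%, next to 11.6% higher and 13.6% lower among all genes. The larger group of libraries had 13 higher and 2 lower (median 0.33) and the smaller one 1 higher and 10 lower (median -0.04). The rises included the focal adhesion protein Zyx (0.85 ± 0.14) and the Hippo kinase Lats2 (1.31 ± 0.24), and Actb varied too much between samples to place (-0.37 ± 0.43, with 0.51 in the larger and -2.07 in the smaller group of libraries).

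Of 40 ligands, receptors and binding proteins of the IGF, BMP and Wnt pathways 5 rose and 7 fell (median 0.10; on deposited RPKM 7 higher and 4 lower, median 0.35). These shares, 12.5% and 17.5%, lie close to the 11.6% and 13.6% of all genes. Igf1, the growth factor of adipocytes and their precursors, stood at 135, 141, 141, 144 and 138 scaled RPKM in the NC samples and 67.3 to 97.2 (median 77.5) in the KD samples (log2 fold change -0.81 ± 0.10 (SE), adjusted p = 8.2e-05). Tgfbr3, the TGF-β co-receptor, fell from 86.5 ± 8.94 (SD, n = 5) to 47.8 ± 6.94 (SD, n = 6; adjusted p = 0.00016). Inhba, the βA subunit of activin, stood at 13.4, 20.8, 12.6, 13.04 and 13.6 scaled RPKM in the NC samples and 24.8 to 40.5 (median 34.1) in the KD samples (log2 fold change 1.20 ± 0.16 (SE), adjusted p = 0.00012). Gdf10, a BMP-like ligand, rose by 2.86 ± 0.47 from 0.475 ± 0.651 scaled RPKM (SD, n = 5). Of the 10 preadipocyte and stromal markers 7 were tested and 2 rose, with sums of 1202 to 1580.1 in KD and 810.0 to 2130.2 in NC.

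Of 50 cytosolic ribosomal proteins 6 rose (12%) and 5 fell (10%), with a median of 0.08, next to 11.6% and 13.6% of all genes. The balance became 24 and 2 on deposited RPKM, 1 and 3 without the filter on low values, and 2 and 3 with a replicate block. In the smaller group of libraries it was none higher and 7 lower (median -0.09). Rplp0 of the stalk rose by 0.30 ± 0.08 (adjusted p up to 0.059 with 1 replicate left out), and Rpl5, which binds 5S RNA, fell, with a log2 fold change of -0.79; both have processed pseudogenes that can take their reads. Of 40 proteasome subunits 8 rose and 2 fell (median 0.12; on deposited RPKM 22 higher and none lower, median 0.38; in the smaller group of libraries 1 higher and none lower), with the ATPases Psmc2 and Psmc6 higher by 0.46 ± 0.08 and 0.48 ± 0.09. In this list 20% rose and 5% fell, next to 11.6% and 13.6% of all genes. Of 48 lysosomal genes 8 rose and 7 fell (median 0.05; on deposited RPKM 20 higher and 2 lower, median 0.30). These shares, 16.7% and 14.6%, lie close to the 11.6% and 13.6% of all genes. Gpnmb, a glycoprotein of stressed lysosomes, stood at 3.09, 2.99, 3.76, 2.90 and 2.89 scaled RPKM in the NC samples and 8.73 to 12.8 (median 11.7) in the KD samples (log2 fold change 1.81 ± 0.15 (SE), adjusted p = 3.5e-06). The proton pump subunits split, with Atp6v1b2 higher by 0.99 ± 0.14 and Atp6v0a1 lower, at -1.67 ± 0.25. Sqstm1, the autophagy receptor p62, rose by 0.74 ± 0.10. Of 69 splicing factors 9 rose and 4 fell (median 0.14; on deposited RPKM 31 higher and 1 lower, median 0.39). The share that rose, 13.04%, was near the 11.6% of all genes, and 5.80% fell against 13.6%. The smaller group of libraries had 1 higher and 5 lower (median -0.03). Hnrnpm and Sf3a1 rose by 0.55 ± 0.11 and 0.64 ± 0.16. Celf2 and Mbnl2, regulators of alternative splicing, fell, with log2 fold changes of -0.72 ± 0.13 and -0.53 ± 0.13 (Mbnl2 on deposited RPKM adjusted p = 0.19).

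**Figure D3:**
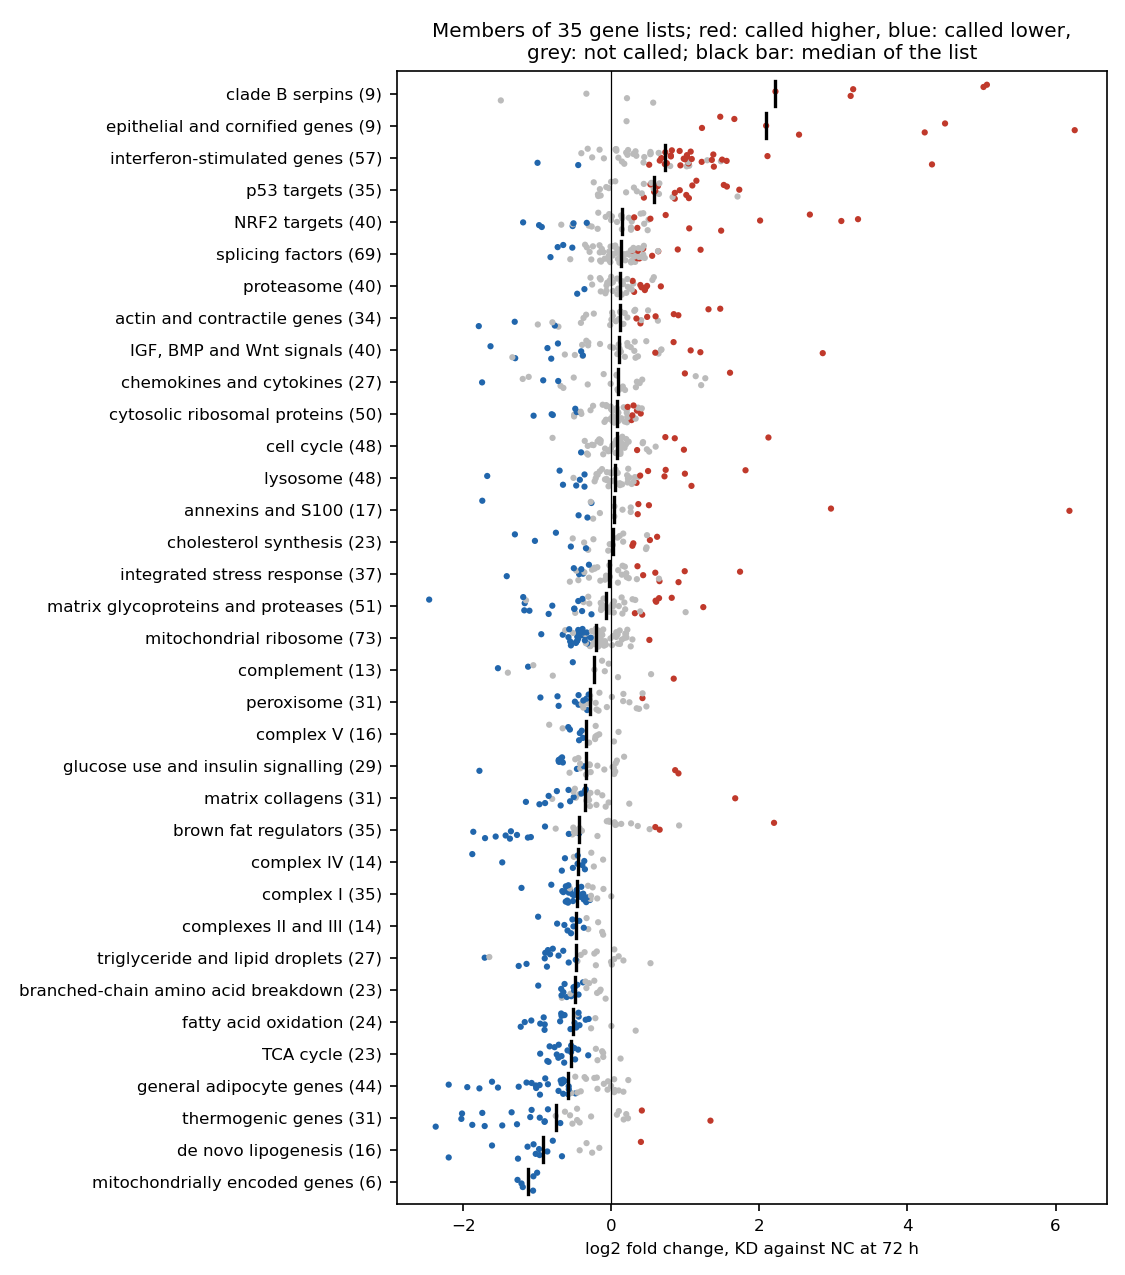
Log2 fold change at 72 h (x axis) of the tested members of 35 gene lists (rows, with the number tested), coloured by call, with the list median as a black bar. Medians run from -1.12 for mitochondrially encoded genes to 2.22 for clade B serpins.

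Above 10 kb, falls were more frequent the longer the gene. An annotated span was found for 10207 of the tested genes (GENCODE M21, GRCm38). Of the 2609 genes under 10 kb, 13.03% fell and 14.1% rose. Of the 4895 genes of 10 to 50 kb, 9.99% fell and 12.7% rose. Of the 850 of 100 to 200 kb, 21.8% fell and 7.88% rose, and of the 308 of 200 to 400 kb, 42.2% and 6.17%. Above 400 kb, 50 of 89 genes fell (56.2%) and 3 rose. The median log2 fold change went from 0.06 at 10 to 50 kb to -0.86 above 400 kb, and from 0.31 to -0.62 on deposited RPKM. It was -1.01 and -0.79 above 400 kb in the larger and smaller groups of libraries. At 24 h, in libraries of their own, the same genes above 400 kb had a median of -1.28 and those of 200 to 400 kb of -0.82. No test was made over genes, which are not replicates. The respiratory chain list consists mostly of short genes: 2 of its 79 tested subunits exceed 100 kb, and these 2 are among the 52 that fell. The 52 had a median span of 6.40 kb. Of all 1373 lower genes with a span, 365 exceed 100 kb. The part of gene span in the falls of the chain was not tested.

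**Figure D4:**
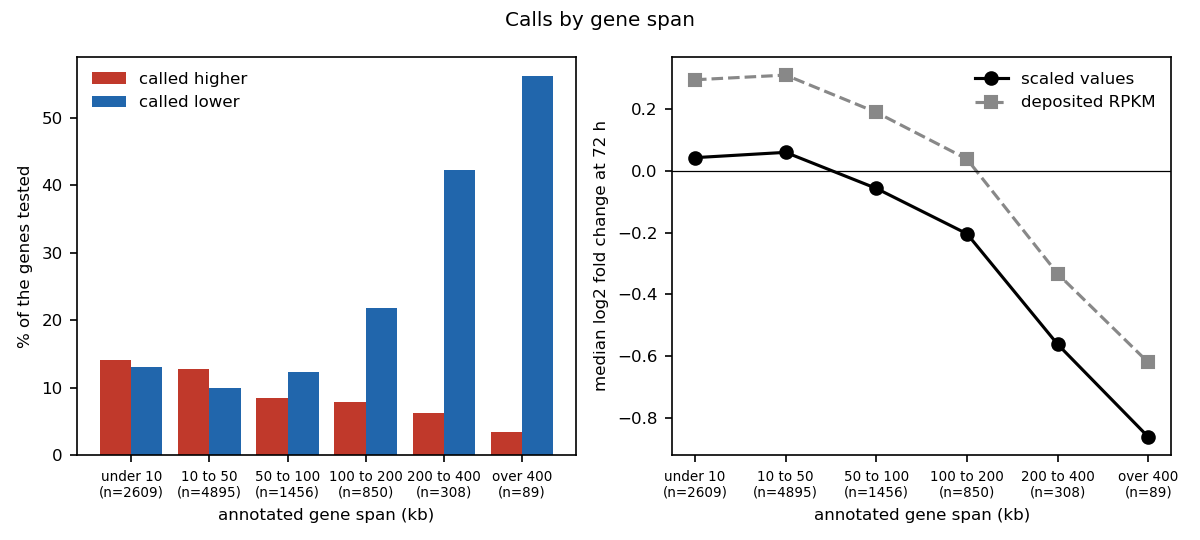
Left, the share of tested genes called higher (red) or lower (blue) in KD at 72 h by annotated gene span in kb; right, the median log2 fold change of each span class on scaled values (black) and on deposited RPKM (grey). The share called lower grows from 9.99% at 10 to 50 kb to 56.2% above 400 kb.

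The late difference was set against the early one in a fit over 23 samples, whose interaction term asks whether the KD effect at 72 h differs from that at 24 h. It passed for 45 of 11165 genes (0.403%), of which 33 stood higher and 12 lower at 72 h than at 24 h; an unadjusted p under 0.05 was reached by 1456. The count rests on few libraries: without the 4 libraries numbered 1 a single gene passed, without those numbered 2 there were 14, without those numbered 3 there were 19 and without those numbered 5 there were 27. Ifi27l2b had the smallest p, with a fold change of 0.27 on the log2 scale at 24 h and 4.33 at 72 h (difference 4.07 ± 0.47, adjusted p = 8e-05). Its mean level was 10.8 scaled RPKM in KD and 8.90 in NC at 24 h, on factors set over all 4 groups. Akr1b3 went from 0.98 to 3.11 (difference 2.14 ± 0.32, adjusted p = 0.0045). Slc5a7, the high-affinity choline transporter, had 3 reads in NC and 124 in KD at 72 h, a ratio of 33.4 with a 95% counting interval of 11.2 to 164 (difference adjusted p = 0.0061). Ascc2, a subunit of an activating signal cointegrator complex, went from -0.61 to 0.76 (adjusted p = 0.0061). Rbp4 deepened its fall from -0.62 to -1.94 (difference -1.32 ± 0.23, adjusted p = 0.0067). Rpl5, Zadh2 and Gm12338 stood at 0.52, 0.38 and 0.05 at 24 h and at -0.79, -1.12 and -0.70 at 72 h (adjusted p of the difference 0.0061, 0.0071 and 0.0096). For Ucp1, with -1.17 at 24 h and -2.37 at 72 h, the difference did not pass (adjusted p = 0.11), nor did it for Cidea (0.1), Nfia (0.73), Adipoq (0.5) and Mdm2 (0.83).

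**Figure D5:**
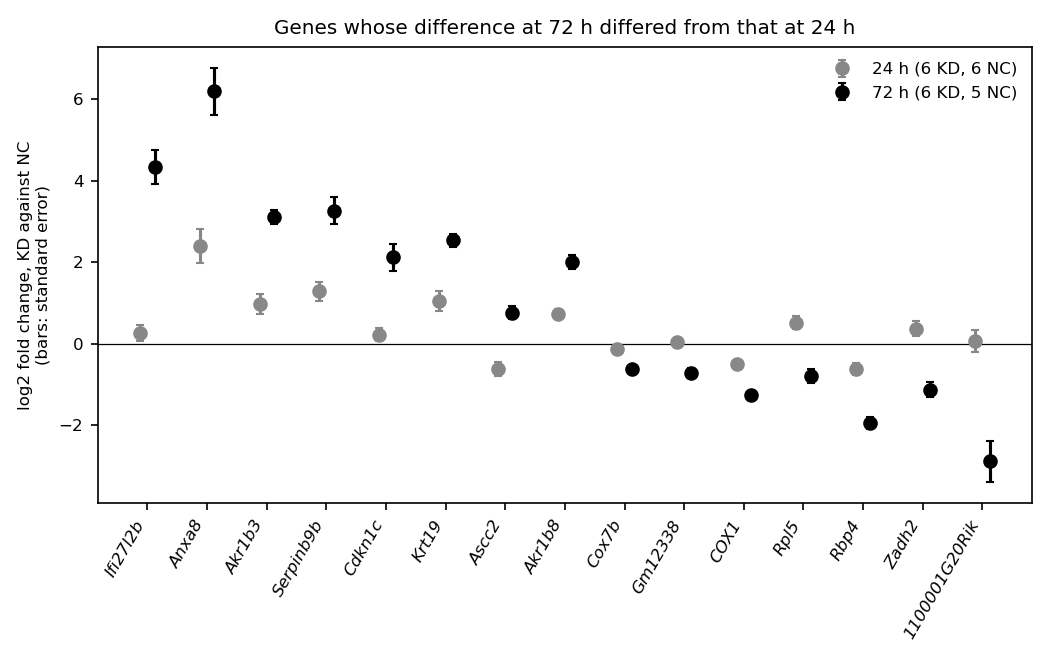
Log2 fold change of KD against NC (y axis) with its standard error at 24 h (grey) and 72 h (black) for 15 named genes whose interaction passed, ordered by the difference. Ifi27l2b, Akr1b3 and Anxa8 lie higher at 72 h, and Rbp4, Zadh2 and 1100001G20Rik lie lower.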

How the data were processed

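The deposited table gives 1 value per transcript entry and library, with no unit in its header; the values move in steps of 1 read that follow transcript length and were taken as RPKM made by the authors. The authors made BRB-seq libraries, aligned the reads to NCBI reference sequences and worked in the Genomatix Software Suite; versions and build are not given in the sources used here. Dividing 3′ end reads by transcript length makes levels of different genes only roughly comparable. Decimal commas were read as points. Library totals and reads were recovered from the RPKM steps, a procedure tested on simulated data. Each symbol was represented by its highest entry over the 24 libraries, NM_ or NR_ entries first; rows whose symbol is an accession were left out. No column was left unused. Libraries were grouped by the labels, and NC 72 h replicates 2 and 3 were averaged.

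Libraries were brought to 1 scale with factors from log ratios to a reference library, trimmed by 30% of the ratios and 5% of the levels at each end, genes with 10 reads in at least 5 samples were kept, and log2(scaled RPKM + 0.1) was tested with limma 3.58.1 (R 4.3.3) with a mean trend and Benjamini-Hochberg adjustment. Fold changes are on that scale and understate those of low genes. The interaction was fitted with limma on all 4 groups. Ctcflos entries were tested by exact permutation of the deposited RPKM. Percentages of NC are ratios of mean scaled RPKM, or of deposited RPKM for the Ctcflos entries. Recovered reads are of PCR-amplified fragments, so intervals and floors cover counting error only.

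The members, the 35 gene lists and the marker lists were chosen with earlier results of these data known; no set test was made, and lists are described by counts and medians. Genes named are Ctcflos and its neighbours, the 12 largest rises and falls that reached 5 scaled RPKM without overlap, the 6 smallest p in each direction, for each list the 4 called members with the smallest p and the 2 with the highest level, the 4 smallest interaction p in each direction, and 15 brite and adipocyte genes; Nr4a1, Zfp516, Kdm1a, Fabp3, Fcer1g, Csf1r, Cd14, Wt1, Isg15, Gbp2 and Irgm1 were added after their values were seen. Some genes that this rule names are not reported here. Promoter stretches are from RefSeq (GRCm38.p6), and 7646 tested genes matched one. Same-numbered KD and NC libraries at 72 h did not deviate together (mean r 0.04, from -0.19 to 0.22). Alternatives were other scalings, pseudocounts, filters and row choices, weights from recovered reads, the library groups, a replicate block and leaving out replicates.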

Additional observations from a re-analysis of the deposited data

Results flagged for a closer look

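Among 96 groups of values of 49 named genes, 4 held a sample whose gap to the nearest other sample took more of the group's range than Dixon's critical value, where chance gives about 1 in 20. NC replicate 5 was high for Pck1, with 14.4 against 7.25 to 8.11 scaled RPKM in the other NC samples (ratio 0.838). The average of NC replicates 2 and 3 was low for Sprr1a, with 0.780 against 2.36 to 2.67 (ratio 0.894), and for Ebf2, with 6.39 against 7.27 to 7.63 (ratio 0.726). KD replicate 2 was high for 8430408G22Rik, with 2.20 against 0.739 to 1.00 (ratio 0.731). No KD and NC ranges met in the last 3 cases.

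For 17 named genes the KD effect at 72 h differed from that at 24 h by the interaction test, given here as the effect at 72 h minus that at 24 h on the log2 scale. It was higher at 72 h for Sprr2k (4.31), Ifi27l2b (4.07), Anxa8 (3.75), Slc5a7 (2.98), Akr1b3 (2.14), Serpinb9b (1.99), Cdkn1c (1.90), Krt19 (1.495), Ascc2 (1.38) and Akr1b8 (1.29). It was lower at 72 h for 1100001G20Rik (-2.94), Zadh2 (-1.49), Rbp4 (-1.32), Rpl5 (-1.30), COX1 (-0.77), Gm12338 (-0.75) and Cox7b (-0.50). These values share the dependence on the libraries numbered 1 given with the interaction counts.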

How the results depend on the processing

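On deposited RPKM without scaling, the calls at 72 h were 3383, 2717 of them higher (80.3%) and 666 lower, and the interaction passed for 247 genes, 239 with a higher effect at 72 h; 6 of the 2642 calls had the other sign. The smaller group of libraries alone gave 1640 calls, 633 higher, and 21 of the 2642 had the other sign there. A pseudocount of 0.5 gave 52 higher interaction effects, and one of 1 gave 83 interaction calls, 63 higher and 20 lower. Leaving out 1 replicate, or NC 2 and 3 together, gave 2119 to 2623 calls (936 to 1216 higher, 1183 to 1414 lower, 43.4% to 46.9% higher). For the interaction, leaving out a replicate number gave 1 to 41 calls (1 to 28 higher, 0 to 13 lower, 64.3% to 100% higher). NR_040321 stood at 14.2% to 22.6% of NC and ENSMUST00000144256 at 2.90% to 10.1% with 1 library left out. The other settings run, NC 2 and 3 kept apart (3060 calls), all 4 groups (2355), the cluster of libraries as a term (3084), the larger group alone (3004), rows without a symbol added (2797, chosen after the data were seen), other filters, pseudocounts and row choices, and voom weights, stayed within 1.5 times the main count. With a replicate block, 2420 genes were called (1113 higher) and 36 interactions, and 1 of 6 KD libraries correlated best with its own number. In 5 pairs of means NR_040321 stood at 17.9% and ENSMUST00000144256 at 6.47% of NC (exact sign flips, p = 0.0625 and 0.125, where 0.0625 is the smallest possible). Of the 215 named genes, 65 lost their call and 11 without a call turned sign in the smaller group of libraries alone, where 1 called gene reversed, Anxa2 at 0.0192. On deposited RPKM 26 lost their call and 10 without a call turned sign. The cause of these changes was not tested, beyond fewer samples in the subsets. Depth limits Ctcflos and other genes with few reads.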
